A study of Rattus norvegicus with 4 samples.

Results

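The nuclei described here are 173 of 46590 nuclei kept from rat hearts, chosen by the marker genes of dendritic cells. A kept barcode held at least 500 unique molecular identifiers (UMIs, each a counted RNA molecule), at least 300 genes and at most 10% of its UMIs in mitochondrial genes. A member also held at least 2 UMIs over Flt3, Zbtb46, Clec9a and Xcr1, with that sum at least 0.1% of its UMIs, at least 1 UMI of Cd74, and none of Cdh5 (an endothelial cadherin), Pdgfra (a fibroblast receptor) or Cd163 (a scavenger receptor of resident macrophages). These 8 genes chose the members, so their values are given only as a description. The members were compared with 860 macrophage nuclei, which were not members and held at least 2 UMIs over Mertk and Mrc1, making up at least 0.1% of their UMIs, at least 1 UMI of Cd74 and none of Cdh5 or Pdgfra.

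The study profiled single nuclei from the infarct zone of Sprague Dawley rats, released by Dounce homogenization and captured with 10x Genomics 3' chemistry. The labels name 4 samples, 1 each: a sham operation, and infarcts (MI) marked 1, 6 and 24 h. The treatment labels describe the infarct samples as reperfused for those hours, while the series text counts hours of ligation of the left anterior descending coronary artery, so the meaning of the hours is unclear. The number of animals per sample is not given in the sources used here. All 4 libraries sit in 1 matrix, and barcode suffixes 1 to 4 are not tied to the sample names. The libraries are therefore called library 1 to library 4 by suffix alone, no condition is compared with another, and there is no replicate check: every interval below covers counting error only.

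Dendritic cells take up antigen, cut it into peptides and display these on major histocompatibility complex (MHC) class II molecules to CD4 T cells, or on class I molecules to CD8 T cells. Conventional type 1 cells (cDC1) depend on the transcription factors IRF8 and BATF3, carry CLEC9A and XCR1, and are known for cross-presentation, the loading of captured antigen onto class I. Type 2 cells (cDC2) lean on IRF4 and carry SIRPA, and plasmacytoid cells (pDC) depend on TCF4 and are known for interferon release. The growth factor receptor FLT3 drives the development of all these lineages. The co-activator CIITA switches on the class II genes through factors that sit on the X and Y boxes of their promoters, and in the heart dendritic cells are few and lie among many more macrophages.

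Members made up 0.371% of kept nuclei (Clopper-Pearson 95% interval 0.318 to 0.431). Library 1 held 11 members of 9013 kept nuclei (0.122%, interval 0.0609 to 0.218), and library 2 held 8 of 14603 (0.0548%, 0.0237 to 0.108). Library 3 held 118 of 16453 (0.717%, 0.594 to 0.858), and library 4 held 36 of 6521 (0.552%, 0.387 to 0.763). The shares in libraries 3 and 4 were thus above those in libraries 1 and 2, and the intervals of the former pair overlapped each other while they did not reach those of the latter. That order rests on the demand for Cd74: with no such demand the shares were 2.03%, 0.418%, 1.08% and 1.49%, and library 1 was the highest. As a share of members and macrophages together, the members were 37.9% (20.7 to 57.7) in library 1, 24.2% (11.1 to 42.3) in library 2, 13.8% (11.6 to 16.3) in library 3 and 30.8% (22.6 to 40.0) in library 4. By that measure library 3, which held 736 of the 860 macrophages, gave the lowest share, and its interval did not overlap that of library 4.

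Depth moved with the library. The median member held 1143, 1044.5, 1820 and 1835.5 UMIs in libraries 1 to 4, and the median macrophage 955.5, 963, 1788.5 and 2176. The members summed to 14372, 12652, 238582 and 78152 UMIs, so the first and second libraries give at most a few UMIs for most genes. The nuclear makeup also differed, since nuclei with high Ryr2 and Myh6 were 31.8% of kept nuclei in library 1 and 2.00%, 1.80% and 4.19% in libraries 2 to 4. The part of depth and of makeup in the member shares was not tested. Between 17 and 77 kept barcodes were shared by each pair of libraries, and 1 member barcode occurred in both library 3 and library 4.

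**Figure D1:**
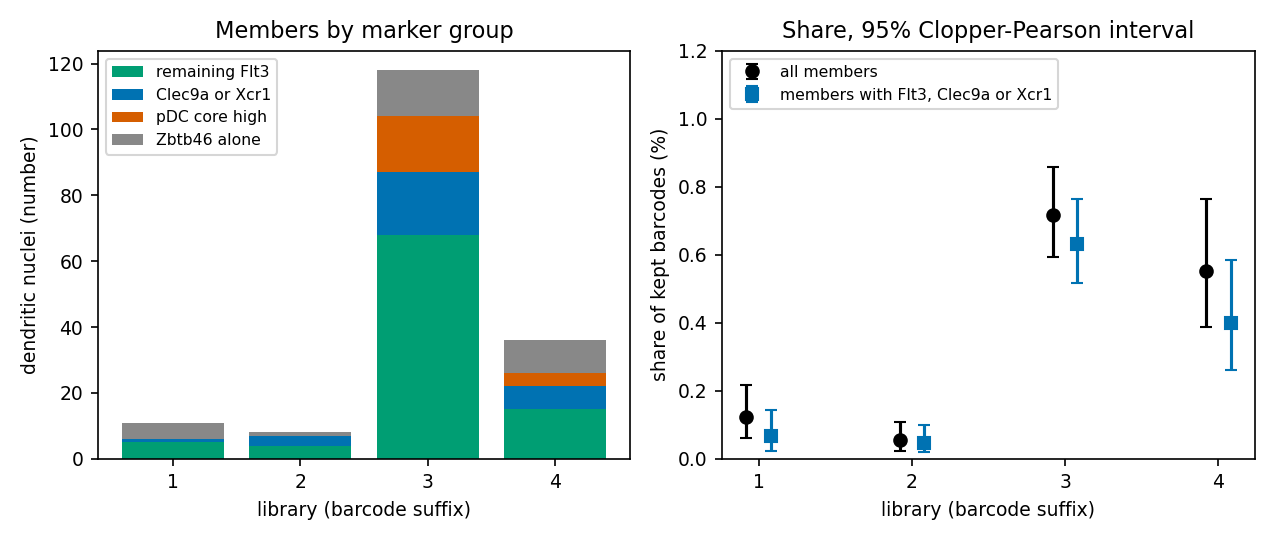
Left, the number of member nuclei in libraries 1 to 4, stacked by the marker groups described below. Right, members as percent of kept barcodes with 95% Clopper-Pearson intervals, for all members (circles) and for those with Flt3, Clec9a or Xcr1 (squares). Libraries 3 and 4, at 0.717% and 0.552%, sit above libraries 1 and 2, at 0.122% and 0.0548%.

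Among the rule's own genes, Flt3 was found in 139 of the 173 members (465 UMIs), Zbtb46 in 94 (179 UMIs), Clec9a in 29 (32 UMIs) and Xcr1 in 1 nucleus of library 2. By pattern, 60 members held Flt3 alone, 53 Flt3 with Zbtb46, 19 Flt3 with Clec9a or Xcr1, and 7 all of these, while 4 held Clec9a or Xcr1 without Flt3. The other 30 held Zbtb46 as their only marker. Barcodes just outside the threshold, 102 with 1 marker UMI that met every other demand, held Wdfy4 at 284 CPM (UMIs of the gene scaled to a total of 1000000), Irf8 at 42.5 and Ciita at 99.2. The 62 members with exactly 2 marker UMIs held Wdfy4 at 917 CPM, Irf8 at 570 and Ciita at 235, and the 111 members with 3 or more held 2135, 908 and 637 CPM. The other demands include the marker sum as a share of UMIs, so a barcode with 1 marker UMI met them only if it was shallow. The 102 were thus limited to a lower depth than the members. The part of depth in the differences between the 102 and the members was not tested. The levels also pool the libraries, and library 3 gave 16 of the 102, 33 of the 62 and 85 of the 111. The 62 include 18 with Zbtb46 alone, and the other 44 held Wdfy4 at 1262 CPM, Irf8 at 804 and Ciita at 299.7.

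Dendritic cell markers that the rule did not use support the label for members with Flt3, Clec9a or Xcr1 in libraries 3 and 4. The data go against it for the 30 nuclei with Zbtb46 alone, taken as a group. In members with Flt3, Clec9a or Xcr1 the summed cDC1 list stood at 3919, 2341, 5670 and 4305 CPM in libraries 1 to 4, and the summed endothelial list at 2504, 5802, 1080 and 1847 CPM. In library 1, where these members are 6, the cDC1 sum was above the endothelial sum. It rested on 36 UMIs, with 9 of the 19 genes at 0. Irf8 was in 2 of the 6 and Ciita in 3, so the support in library 1 is thin. In library 2, where these members are 7, the endothelial sum was above the cDC1 sum. There 1 of the 7 held Ciita and 2 held Irf8, so the label is not settled in that library. Zbtb46 is a transcription factor of conventional dendritic cells that endothelial cells also carry. In the 30 nuclei with Zbtb46 alone the endothelial genes Flt1 and Ptprb, a growth factor receptor and a phosphatase, stood at 1310 and 1177 CPM, with Flt1 in 22 of the 30, and the leukocyte phosphatase Ptprc was found in 15. The summed endothelial list reached 6833 CPM there, against 1950 CPM in the 30 members with Clec9a or Xcr1 and 1122 CPM in the macrophages. The fibroblast list summed to 6966 CPM there, against 3403 and 4436 CPM in the same order. Its median per nucleus was 0.412% of UMIs, against 0.418% in macrophages, and the highest nucleus held 4.45%. Clnk, an adaptor protein of cDC1, had 0 UMIs in the nuclei with Zbtb46 alone, and Irf8 stood at 38.0 CPM. Ciita was not absent: in library 3, 4 of these 14 nuclei held it, against 31 of 736 macrophages, and in library 4, 0 of 10 did. The 12 nuclei with 3 or more marker UMIs held Ciita at 299.8 CPM, from 8 UMIs, and Flt1 at 1574 CPM. The 18 with 2 held Ciita at 76.9 CPM and Flt1 at 1038 CPM. The reading is thus for the group and not for each nucleus. These 30 are called nuclei with Zbtb46 alone from here on, and numbered 5, 1, 14 and 10 in libraries 1 to 4. Without them the members were 6, 7, 104 and 26, or 0.0666%, 0.0479%, 0.632% and 0.399% of kept nuclei, which left libraries 3 and 4 above libraries 1 and 2.

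**Figure D2:**
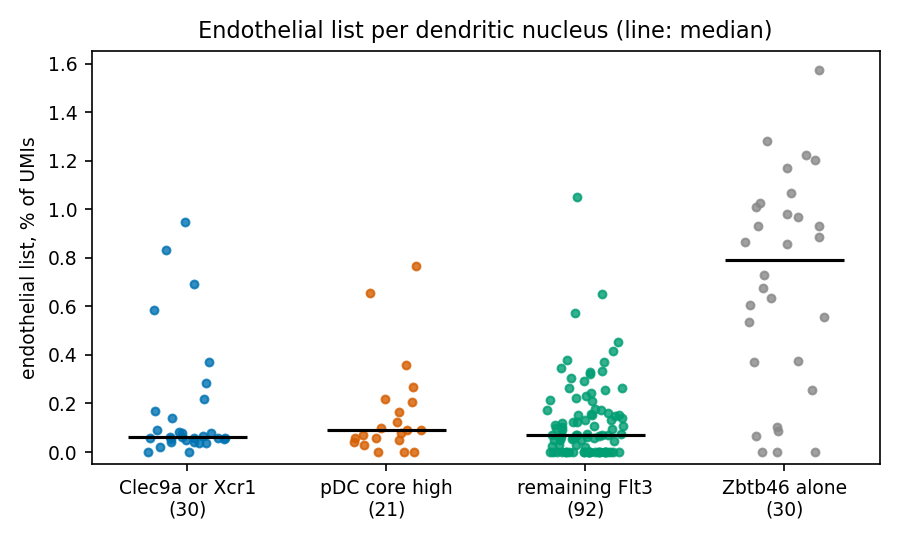
Summed endothelial marker genes, as percent of each nucleus's UMIs, for the 4 groups of members, with 1 point per nucleus, scattered sideways, and a line at the median. The nuclei with Zbtb46 alone had a median of 0.793%, against 0.0627% for members with Clec9a or Xcr1.

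Class II genes are shown first because Ciita and several class II chain genes were higher in the members than in the macrophages in both larger libraries. The 4 promoters printed next belong to class II genes that stood above the macrophage level, and they show the letters to which the CIITA pathway's partners are known to bind. They are RefSeq sequences on build GRCr8, each 300 bases long, from 250 bases before to 50 bases after the annotated start. RT1-Da lies at chr20:4515165-4515464 on the plus strand, RT1-Db1 at chr20:4560113-4560412 on the minus strand, RT1-Ba at chr20:4576807-4577106 on the plus strand and RT1-DOa at chr20:4758374-4758673 on the minus strand. Each is written 5′ to 3′ on the gene's own strand, and capitals mark 2 motifs: GATTGG or its reverse complement CCAATC, the core of the Y box, and AGCAAC or GTTGCT, a core of the X box.
RT1-Da: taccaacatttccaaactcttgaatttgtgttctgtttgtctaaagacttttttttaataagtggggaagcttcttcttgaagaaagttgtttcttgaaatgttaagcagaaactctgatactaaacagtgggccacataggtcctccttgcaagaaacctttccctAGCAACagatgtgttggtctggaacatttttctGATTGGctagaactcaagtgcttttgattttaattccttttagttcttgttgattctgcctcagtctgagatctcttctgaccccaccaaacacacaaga
RT1-Db1: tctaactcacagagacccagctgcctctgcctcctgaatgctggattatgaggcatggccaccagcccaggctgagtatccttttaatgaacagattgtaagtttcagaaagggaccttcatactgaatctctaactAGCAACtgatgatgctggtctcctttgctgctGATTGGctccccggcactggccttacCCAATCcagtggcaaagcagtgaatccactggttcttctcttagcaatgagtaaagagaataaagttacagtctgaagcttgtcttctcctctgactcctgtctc
RT1-Ba: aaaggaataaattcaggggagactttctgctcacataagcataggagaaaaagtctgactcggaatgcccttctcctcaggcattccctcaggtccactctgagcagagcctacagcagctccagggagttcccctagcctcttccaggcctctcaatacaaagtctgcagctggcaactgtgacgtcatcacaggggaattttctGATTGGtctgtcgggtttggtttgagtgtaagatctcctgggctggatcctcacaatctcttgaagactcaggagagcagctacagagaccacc
RT1-DOa: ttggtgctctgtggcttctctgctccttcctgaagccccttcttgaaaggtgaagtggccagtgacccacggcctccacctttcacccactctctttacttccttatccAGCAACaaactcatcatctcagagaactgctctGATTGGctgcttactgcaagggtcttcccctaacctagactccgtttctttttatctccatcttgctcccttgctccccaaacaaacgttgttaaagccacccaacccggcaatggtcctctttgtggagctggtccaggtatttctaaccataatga
In the RT1-Da promoter the Y core began 50 bases and the X core 83 bases upstream of the start. In RT1-DOa they began 108 and 141 bases upstream. RT1-Db1 held an X core 113 bases upstream and a Y core at 81 bases, with another Y core at 55 bases on the opposite strand, and RT1-Ba held a Y core at 44 bases and no X core in these letters. Of 8 genes looked up, 6 had a promoter in the table: the Y core was in 6 of them and the X core in 3. Across 33469 promoters of the same length, 14.8% held the Y core on either strand, 14.7% the X core and 2.09% both. The 2 motifs did not overlap in the printed promoters, and a match describes these letters and does not show that a factor binds.

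Genes were compared in the 2 libraries with at least 20 members, libraries 3 and 4. A gene is called higher or lower here when it differed by at least 2-fold in the same direction in both, after adding 10 CPM to each level, among genes whose pooled levels in the 2 classes summed to at least 40 CPM. Against macrophages, 228 of 8176 genes were higher in the members, 2.79%, and 170 were lower, 2.08%. Of these, 176 and 114 had counting intervals of the fold that excluded 1 in both libraries. Without the nuclei with Zbtb46 alone the counts were 255 higher and 191 lower, with 198 and 134 of the calls shared. Against all other kept nuclei of the same library, 280 of 8419 genes were higher, 3.33%, and 295 were lower, 3.5%.

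**Figure D3:**
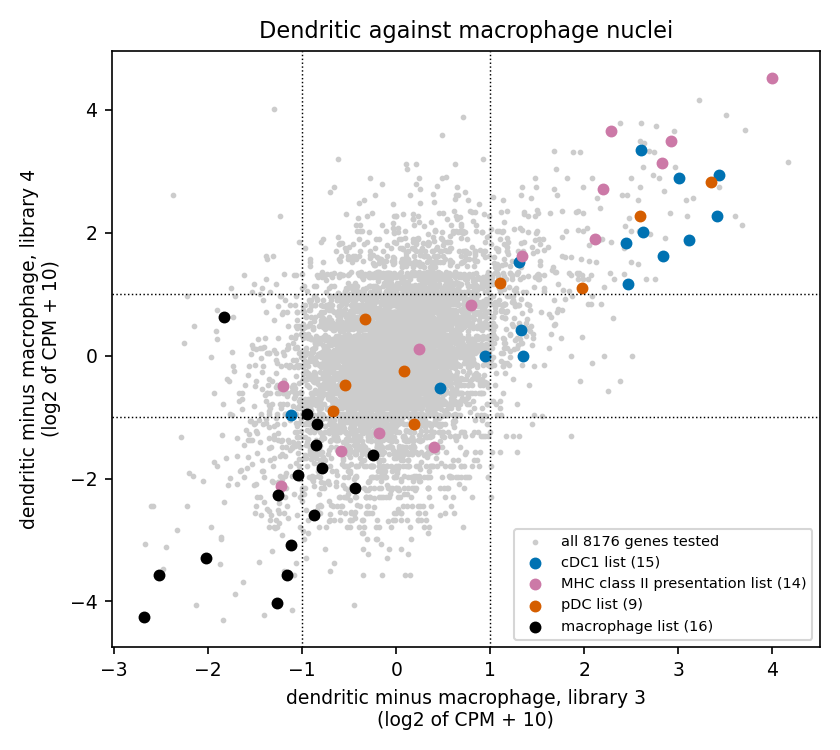
Log2 difference between members and macrophages for each gene in library 3 (horizontal) and library 4 (vertical), each after adding 10 CPM. Grey points are all 8176 genes tested, coloured points 4 gene lists, and dotted lines 2-fold, with most points of the cDC1 list at the upper right and none of the macrophage list there.

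The class II list was led by Ciita itself, the master switch of the pathway. Ciita stood at 417 CPM in the members of library 1 (6 UMIs), 79.0 in library 2 (1 UMI), 629 in library 3 (150 UMIs) and 333 in library 4 (26 UMIs), against 134, 0, 29.9 and 4.92 CPM in the macrophages of the same libraries. The member level was above the macrophage level in each library, with at most 6 UMIs behind it in libraries 1 and 2. The ratio was 21.0 in library 3 (95% interval 15.1 to 29.5) and 67.7 in library 4 (11.1 to 2774), where the macrophages had 1 UMI.

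RT1-Da and RT1-Db1 encode the alpha and beta chains of the rat's HLA-DR-like class II molecule. RT1-Da stood at 69.6, 0, 578 and 729 CPM in the members of libraries 1 to 4, against 179, 35.5, 118 and 103 CPM in the macrophages. Libraries 3 and 4 were 4.90-fold (3.91 to 6.12) and 7.06-fold (4.22 to 12.3) higher in members, while in libraries 1 and 2 the members had 1 and 0 UMIs and sat below the macrophages. RT1-Db1 stood at 557, 158, 679 and 640 CPM in members and at 313, 71.0, 87.4 and 63.9 CPM in macrophages, so here the members were above in all 4 libraries. Its ratios in libraries 3 and 4 were 7.76 (6.17 to 9.78) and 10.01 (5.36 to 20.1).

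RT1-Ba and RT1-Bb encode the chains of the HLA-DQ-like molecule. In the members RT1-Ba had 2, 1, 89 and 38 UMIs in libraries 1 to 4, which is 139, 79.0, 373 and 486 CPM. The macrophages stood at 44.7, 0, 68.9 and 29.5 CPM. Its ratio was 5.42 (4.06 to 7.20) in library 3 and 16.5 (6.91 to 47.7) in library 4. RT1-Bb was 5.38-fold (3.47 to 8.29) and 6.51-fold (1.07 to 68.3) higher in those libraries, the latter from 5 UMIs against 2. RT1-DOa, a chain of the DO molecule that tunes peptide loading, stood at 83.8 against 2.40 CPM in library 3, a ratio of 34.99 (11.7 to 141), and at 102 CPM from 8 UMIs against none in library 4, at least 6.94-fold higher against a floor of 3 counts.

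Of 14 class II pathway genes tested, 7 were called higher and 1 lower, with a median log2 difference of 1.06 in library 3 and 1.23 in library 4. The whole list of 21 genes summed to 5357 CPM in members against 3673 in macrophages in library 3 and to 4453 against 3638 in library 4, and per nucleus it ranged from 0 to 1.44% of UMIs in members and from 0 to 1.29% in macrophages of library 3, so the nuclei overlapped. The medians over all genes tested were 0.01 and 0.00. March1, a ubiquitin ligase known to remove class II from the surface, was also higher, at 465 against 178 CPM in library 3 and 537 against 167 in library 4, or 2.61-fold (2.08 to 3.25) and 3.22-fold (2.00 to 5.21). Lgmn, an asparagine-specific endopeptidase of the lysosome, was the lower gene of the list, at 570 against 1346 CPM and 282 against 1259 CPM, so 2.36-fold (1.99 to 2.83) and 4.47-fold (2.89 to 7.26) lower. Without the nuclei with Zbtb46 alone the list's median, from each gene's mean over both libraries, went from 1.15 to 1.73.

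**Figure D4:**
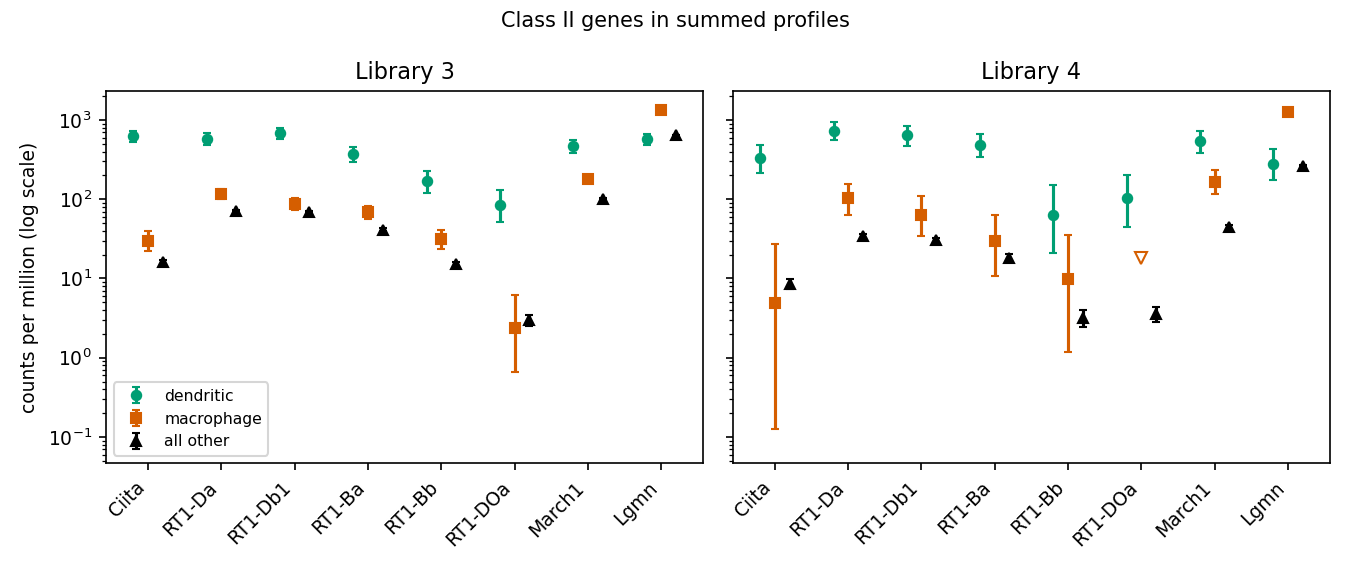
Levels of Ciita and of other class II pathway genes in the members (circles), the macrophages (squares) and all other kept nuclei (triangles) of libraries 3 and 4, in CPM on a log axis, with 95% Poisson intervals and an open triangle at the upper limit of a class with no UMI. For Ciita, RT1-Da, RT1-Db1 and RT1-Ba the member point lies above the macrophage point in both libraries.

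The share of nuclei with a UMI showed the same order for Ciita at matched depth. In library 3, 65 of 118 members (55.1%) and 31 of 736 macrophages (4.21%) held a Ciita UMI, against 0.676% of the nuclei with high Ryr2 and Myh6. The median depth of the latter was 3561 UMIs, and the part of free RNA in these shares was not tested. After each nucleus was thinned to 500 UMIs, which left out none since every kept nucleus holds that many, the shares were 26.3%, 1.77% and 0%. In library 4, 10 of 36 members (27.8%, thinned 13.9%) and 1 of 81 macrophages held one. For Bcl11a, a transcription factor of the pDC lineage, the member share of 39.8% in library 3 was no higher than the 41.2% of the nuclei with high Ryr2 and Myh6, although it was above the 6.39% of macrophages. After thinning these were 19.5%, 8.11% and 1.36%. In library 1, 33.2% of the nuclei with high Ryr2 and Myh6 held Bcl11a and 4.65% held Ptprc, while 0 of 18 macrophages held Bcl11a. In library 3, 58.1% of the nuclei with high Ryr2 and Myh6 held Ptprc and 32.4% held Mrc1. Where the Bcl11a UMIs in the nuclei with high Ryr2 and Myh6 came from was not tested.

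Genes of cDC1 stood higher in the members as a list. Of its 15 tested genes, 10 were called higher and none lower, with medians of 2.46 and 1.63 in libraries 3 and 4. Wdfy4, a protein required for cross-presentation, stood at 1252, 632, 1978 and 1625 CPM in the members of libraries 1 to 4, against 223, 177, 237 and 211 CPM in the macrophages. Members were above macrophages in every library, by 8.34-fold (7.28 to 9.56) in library 3 and 7.69-fold (5.40 to 11.1) in library 4.

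Irf8, the factor that specifies cDC1, stood at 209, 474, 993 and 461 CPM in members and at 89.4, 142, 106 and 118 CPM in macrophages. The ratio was 9.37 (7.68 to 11.4) in library 3 and 3.90 (2.27 to 6.84) in library 4, and those intervals did not overlap. Clnk stood at 428 against 30.5 CPM in library 3 and 256 against 24.6 in library 4, ratios of 14 (9.91 to 20.0) and 10.4 (3.79 to 35.5). In libraries 1 and 2 Clnk had 3 and 2 UMIs in members and none in macrophages.

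Batf3, the partner of Irf8 in cDC1, had 20 UMIs in the members of library 3, or 83.8 against 7.19 CPM, a ratio of 11.7 (5.43 to 26.2), and only 2 UMIs against 0 in library 4. Cadm1, an adhesion molecule used to mark cDC1 across species, had 30 UMIs in library 3 (126 against 8.98 CPM) and 4 in library 4. Itgae, the integrin CD103, stood at 189 against 22.8 CPM and 192 against 9.83 CPM. Tlr3, a receptor for double-stranded RNA, was 9.33-fold (5.51 to 16.0) and 6.07-fold (1.39 to 36.4) higher, a call lost without the 76 members that held Mertk or Mrc1. Id2, a factor that the cDC1 lineage needs, stood at 176 against 62.9 CPM in library 3 but at 64.0 against 63.9 in library 4 (ratio 1.00, interval 0.279 to 2.99), and so was not called.

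The cDC2 list did not move the same way. None of its 15 tested genes was higher and 3 were lower, namely Zeb2, Clec4a2 and Clec4a, with medians of -0.50 and -0.85. Zeb2, a transcription factor shared with macrophages and cDC2, stood at 1953 against 5186 CPM in library 3 and 1062 against 4203 in library 4, or 2.66-fold (2.42 to 2.92) and 3.96-fold (3.16 to 5.02) lower. Sirpa, the receptor for CD47, stood at 180 against 316 CPM and 166 against 265 CPM and was not called. Irf4 had 11 UMIs in the members of library 3 and 0 in library 4. Several genes of this list are also carried by macrophages.

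Among 22 transcription factors of dendritic cell development and their progenitors, 7 were higher and 2 lower, with medians of 0.66 and 0.80. Bcl11a, Cbfa2t3, Kit, Irf8, Batf3, Runx3 and Tcf4 were the higher genes, and Cebpb and Zeb2 the lower. Cbfa2t3, a co-repressor, stood at 549 against 64.1 CPM and 461 against 83.6 CPM. Kit, the receptor for stem cell factor, stood at 138 against 14.97 CPM in library 3, 9.24-fold higher (5.33 to 16.2), and had 6 UMIs against 1 in library 4. Spi1, the master factor of the myeloid lineage, was close to the macrophage level, at 180 against 182 CPM and 154 against 187 CPM.

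Of 9 tested pDC genes, 4 were higher, Bcl11a, Lair1, Runx2 and Tcf4, and none lower, with medians of 0.19 and 0.59. Bcl11a stood at 139, 237, 599 and 512 CPM in members and at 0, 0, 49.7 and 63.9 CPM in macrophages, and its ratios in libraries 3 and 4 were 12.1 (9.14 to 16.0) and 8.01 (4.20 to 16.3). Tcf4, the factor that maintains pDC, stood at 2296, 2055, 1572 and 1791 CPM in members and at 1162, 1455, 724 and 787 CPM in macrophages. Its ratios of 2.17 (1.93 to 2.44) and 2.28 (1.80 to 2.88) were small beside those of Bcl11a, and the calls of Tcf4 and Runx2 were lost under median-of-ratios scaling. Siglech, a surface lectin that marks rodent pDC, had 9 UMIs in library 3 and 0 in library 4.

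Genes with the largest differences included several outside these lists. Cd226, an adhesion receptor of lymphocytes, stood at 373 against 11.4 CPM in library 3, 32.8-fold higher (19.8 to 57.0), and at 166 against 9.83 CPM in library 4. Hs3st3a1, a heparan sulfate sulfotransferase, was 19.6-fold (12.9 to 30.6) and 24.7-fold (5.97 to 219) higher, from 87 and 19 UMIs. Ctse, the protease cathepsin E, stood at 205 against 8.98 CPM in library 3 and at 141 CPM against none in library 4, at least 9.54-fold higher. Zfp366 (DC-SCRIPT), a zinc finger protein known from dendritic cells, stood at 323 against 25.8 CPM and 256 against 4.92 CPM. Slamf7, a receptor of the SLAM family, was 65.3-fold (20.2 to 336) and 18.2-fold (2.34 to 821) higher, but the macrophages held only 3 and 1 UMIs of it.

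The members were also set against all other kept nuclei of their library. Unlike the members, these nuclei were under no demand for Cd74, so for class II pathway genes the 2 sides were not chosen alike. Ciita was 38.9-fold (32.4 to 46.3) higher in library 3 and 38.8-fold (24.7 to 58.5) in library 4. Cd226 was 40.1-fold and 33.2-fold higher, Ctse 21.4-fold and 28.6-fold, and Wdfy4 14.9-fold and 29.4-fold. The 2 references share no nuclei with the members, but the macrophages are among all other nuclei, so the comparisons share part of their reference.

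Macrophage genes were lower in the members. Of 16 genes on the macrophage list, 8 were lower and none higher, with medians of -1.08 and -2.21; Mertk and Mrc1 chose the macrophages and Cd163 barred members, so that direction is in part set by the rules. The summed macrophage list was 5772 CPM in the members of library 3 and 2035 in library 4, against 11778 and 12300 CPM in the macrophages. Mertk or Mrc1 was found in 76 members, 65 of them in library 3. Of 18 genes for phagocytosis and scavenging, 9 were lower (Itgb5, Scarb2, C1qb, Lrp1, Msr1, C1qc, C1qa, Colec12 and Stab1) and Havcr1 was higher, with medians of -0.88 and -1.56.

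F13a1, a coagulation factor subunit carried by resident macrophages, stood at 0, 0, 54.5 and 12.8 CPM in the members of libraries 1 to 4, against 938, 213, 404 and 423 CPM in the macrophages. The members lay below in each library, by 7.42-fold (4.31 to 14) in library 3 and 33.0-fold (5.77 to 1320) in library 4, the latter from 1 UMI. Stab1, a scavenger receptor, stood at 50.3 against 337 CPM and 12.8 against 261 CPM, and Colec12, a collectin receptor, at 159 against 912 CPM and 51.2 against 521 CPM. Mitf, a transcription factor of lysosomal genes, was 2.47-fold and 7.33-fold lower. Csf1r, the receptor on which macrophages depend, was 1.76-fold (1.35 to 2.35) and 3.76-fold (1.89 to 8.49) lower and so missed the 2-fold demand in library 3. Spp1, or osteopontin, missed it too, at 3663 against 6716 CPM in library 3 and 1254 against 7600 in library 4.

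Several genes known from migratory dendritic cells were hardly detected, and of 24 such genes listed, 9 were tested. Ccr7, the receptor that guides dendritic cells to lymph nodes, had no UMI in any of the 173 members, and neither did Lamp3, Ccl22 or Il12b. Fscn1 had 3 UMIs, Cacnb3 1, Il4i1 6 and Socs2 6. None of the 173 members held 2 UMIs from 2 genes of the core of migratory genes. The interval of that share reaches 2.11%, which limits how often the genes were detected at this depth and not the share of migratory cells, and 3 of 860 macrophages met the same demand. Of 9 tested genes on the migratory list, only Slco5a1, a transporter, was higher, with 66.7% of its UMIs from 21 nuclei described further on, and that call was lost without the members with Mertk or Mrc1. Of 11 costimulation genes 2 were higher, Slamf7 and the inhibitory receptor Havcr2, beside 2.79% of all genes tested. Against all other nuclei 3 of 11 were higher, beside 3.33%, with medians of 0.95 and 1.08 in libraries 3 and 4. Cd86, a ligand of CD28, was not called against macrophages and had 8 and 3 UMIs in those libraries.

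Class I genes were near the macrophage level. B2m, the light chain of class I, stood at 914 against 850 CPM in library 3 and 806 against 846 in library 4. Of 21 genes on the class I and cross-presentation list 2 were higher, Wdfy4 and the small GTPase Rab43, with medians of 0.10 and -0.34. None of 13 chemokine and receptor genes and none of 18 immediate early and NF-kB genes was called, and 1 of 16 interferon genes was, Xaf1, at 2.80-fold and 4.55-fold higher, which was no longer called without the nuclei with Zbtb46 alone. Of 6 cytokines 2 were higher, Il18 at 340 against 158 CPM and 294 against 108 CPM, and Il16 at 4.15-fold and 6.51-fold. The call of Il18 was lost without the members with Mertk or Mrc1, and the list's median of 0.50 turned to -0.0273 with no demand on Cd74 in members and to -0.21 with no filter on low genes. Tlr3 was the only one called of 19 pattern recognition genes.

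Of 25 genes for the cytoskeleton and migration, Itgae, Itgb7, Arhgap15 and Plxnc1 were higher and Arhgap22 was lower. Itgb7, the beta chain that pairs with Itgae, was 2.97-fold and 7.81-fold higher. Arhgap15, a brake on the small GTPase Rac, stood at 1886 against 685 CPM and 1971 against 570 CPM. Among 22 lysosomal genes the transcription factors Mitf and Tfec were lower and none was higher, and of 23 genes of glucose and lipid metabolism Abca1, Slc2a3 and Hk3 were lower, the latter pair a glucose transporter and a hexokinase.

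Of 25 cell cycle genes, Cenpf, Kif23 and Ezh2 were higher and none lower, with medians of 0.56 and 0.73. Cenpf, a kinetochore protein made in G2 and mitosis, stood at 247 against 55.1 CPM and 230 against 49.2 CPM, 4.49-fold and 4.68-fold higher. The share of nuclei with at least 2 UMIs over the whole list was 71.2% in the members of library 3 against 66.3% of macrophages, and 50% against 55.6% in library 4, so that cruder count did not order the 2 classes the same way in both libraries. No cycling is read from these counts.

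Markers of other cell types were measured beside these groups. Of 6 B cell genes 4 were higher, Cd22, Fcrla, Bach2 and Ighm, while the defining B cell gene Ms4a1 had no UMI and Pax5 was found in 2 members. The summed B cell list was 1488 and 2047 CPM in the members of libraries 3 and 4 against 789 and 501 in macrophages. None of 12 cardiomyocyte, 11 fibroblast, 7 pericyte or 5 neutrophil genes was called. The cardiomyocyte list summed to 3085 and 3557 CPM in members against 3433 and 5570 in macrophages, and the fibroblast list to 5181 and 2994 against 4638 and 3481. Of 11 endothelial genes Flt1 was higher, and that list summed to 1672 and 3045 CPM in members against 1112 and 1032 in macrophages. Of 3 T and NK cell genes Klrk1 was higher and Skap1 lower, and of 9 monocyte genes Adgre4 was higher.

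The members were not alike among themselves. They were divided into 4 groups: the 30 with Clec9a or Xcr1, the 30 with Zbtb46 alone, 21 high in a core of pDC genes, and the remaining 92 with Flt3. The core was Siglech, Tcf4, Ccr9, Runx2, Bcl11a and Spib, and the 21 nuclei held at least 0.5% of their UMIs in it with at least 1 UMI each of Runx2 and Bcl11a. That demand was set after the values had been seen, it cuts a range, and 2 nuclei lay within 0.1 percentage points of it. The median nucleus held 1961 UMIs in the group with Clec9a or Xcr1, 1844 in the group high in the pDC core, 1740 in the remaining Flt3 group and 1610.5 with Zbtb46 alone. Group levels below pool the libraries and, for the genes that chose a group, are a description only. The group high in the pDC core had 17 nuclei in library 3, 4 in library 4 and none in libraries 1 and 2.

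**Figure D5:**
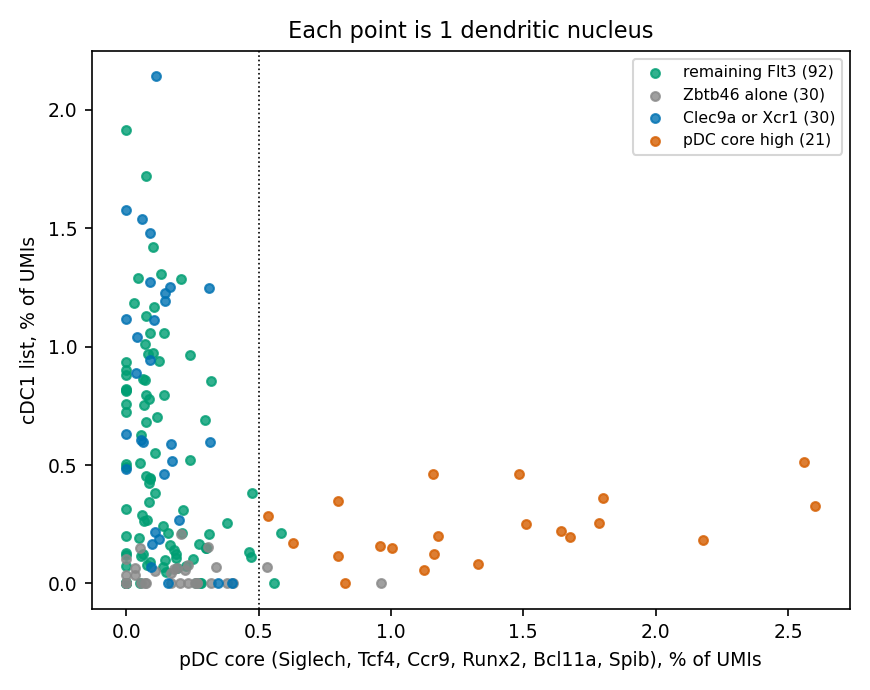
Percent of each member's UMIs in the pDC core genes (horizontal) against percent in the cDC1 list (vertical), 1 point per nucleus, coloured by group, with a line at the 0.5% demand. The nuclei right of the line lie low on the cDC1 axis, and 4 points right of it are outside the group because they lack Runx2 or Bcl11a.

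The summed cDC1 list stood at 7002 CPM in the members with Clec9a or Xcr1, 5135 in the remaining Flt3 group, 2269 in the pDC core group and 399 with Zbtb46 alone, against 864 in macrophages. Wdfy4 stood at 3036 CPM in the first, 2159 in the remaining Flt3 group, 345 in the pDC core group and 56.9 with Zbtb46 alone. Clnk stood at 681, 414, 74.0 and 0 CPM in the same order, and Ciita at 746, 655, 49.3 and 190 CPM. The pDC core group sums to 40551 UMIs, so its Ciita level rests on few UMIs. It is not set apart from the macrophage level of 28.1 CPM. Irf8 had another order, with 1270 CPM in the group with Clec9a or Xcr1, 724 in the remaining Flt3 group and 1406 in the pDC core group.

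The nuclei high in the pDC core carried genes that the other members nearly lacked. Hs3st3a1 was found in 20 of these 21 nuclei, at 2565 CPM, and in 1 of 30, 1 of 92 and none of the nuclei in the other groups. Blnk, an adaptor of B cell receptor signalling that pDC also carry, was found in 20 of 21 at 1332 CPM, against 91.6, 97.6 and 38.0 CPM in the group with Clec9a or Xcr1, the remaining Flt3 group and the nuclei with Zbtb46 alone. Ighm, the heavy chain of immunoglobulin M, was found in 14 of 21 at 764 CPM. Siglech was found in 7 of 21 at 222 CPM and in no other member, but it is a core gene that helped to choose the group. Cd226 and Kit had no UMI in these 21 nuclei. Zbtb46 was found in 2 of them.

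Class II levels differed between the groups too. RT1-Da stood at 497 CPM in the group with Clec9a or Xcr1, 821 in the remaining Flt3 group, 123 in the pDC core group and 190 with Zbtb46 alone, against 116 in macrophages. RT1-Db1 stood at 641, 925, 148 and 114 CPM, and RT1-Ba at 249, 551, 173 and 152 CPM. These levels pool libraries of unlike mix, and the order of the first and the remaining Flt3 group was not the same in both. In library 3 RT1-Da stood at 715 CPM in the group with Clec9a or Xcr1 and 698 in the remaining Flt3 group, and the summed class II list at 6124 and 6008 CPM. In library 4 RT1-Da stood at 249 and 1714 CPM and the list at 3650 and 7392 CPM, from 7 and 15 nuclei, 1 of which held 2.93% of its UMIs in the list. Between members with Clec9a or Xcr1 and all other members, RT1-Ba stood at 249 against 415 CPM, a ratio of 0.599 (0.348 to 0.980).

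Several genes of cDC1 beside the markers were higher in the members with Clec9a or Xcr1 than in the other members. The latter include the nuclei with Zbtb46 alone and the group high in the pDC core. The ratio was 2.43 for Clnk (1.67 to 3.50), 2.07 for Wdfy4 (1.75 to 2.44), 2.96 for Batf3 (1.2 to 7.16), 2.58 for Gcsam (1.2 to 5.42) and 1.83 for Irf8 (1.42 to 2.36). The intervals included 1 for Cadm1 at 2.17 (0.996 to 4.53), Naaa at 1.45 (0.841 to 2.43) and Tlr3 at 1.31 (0.615 to 2.62). They also did for Id2 at 1.17 (0.571 to 2.23) and Itgae at 1.12 (0.580 to 2.03). Among the most different genes, Trabd2b, a protease that acts on Wnt proteins, was 7.39-fold higher in members with Clec9a or Xcr1 (3.18 to 18.5). Fntb, a subunit of farnesyltransferase, was 7.70-fold higher and Mcm7, part of the replication helicase, 5.83-fold. Ralgps2 at 5.69-fold and Igf2 at 5.25-fold rested on 3 nuclei each. Hs3st3a1, Runx2, Gas6, Gucy1a2 and Pkhd1l1 were the lowest. Clec9a itself gave 32 UMIs in all over 29 nuclei, so this split is by a sparse gene and does not separate cell types.

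Libraries 3 and 4 differed in some genes within the members. Of 2457 genes with at least 20 UMIs in the higher library, 381 were at least 2-fold apart. A gene entered through the library where it was higher. The same 20 UMIs are a higher level in library 4, whose members sum to fewer UMIs. Counting error was not set apart, so the 381 are not read as a result. Tagap, a gene of activated leukocytes, had 22 UMIs (92.2 CPM) in library 3 and none in library 4, and so did Mfsd1, a lysosomal membrane protein, whose macrophage levels were 98.2 and 78.7 CPM. Amd1, an enzyme of polyamine synthesis, had 33 UMIs in 30 nuclei of library 3 and 1 UMI in library 4. The upper limit that 0 UMIs of the 78152 in library 4 allows is 38.4 CPM, from 3 counts.

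Of the genes higher in library 4, Samhd1 and Pde3a rested largely on 1 nucleus each, and Adamts9 did not. Samhd1, a nucleotide hydrolase, stood at 33.5 CPM in library 3 and 358 in library 4, but 18 of its 28 UMIs there were in 1 nucleus. Pde3a, a phosphodiesterase of heart and vessel cells, stood at 33.5 and 345 CPM, with 17 of 27 UMIs in 1 nucleus. Adamts9, a protease of endothelial and stromal cells, stood at 50.3 and 461 CPM, in 7 of 118 and 14 of 36 members, and at 14.1 and 288 CPM without the nuclei with Zbtb46 alone. In all other nuclei Adamts9 stood at 158 and 638 CPM, so it was higher in library 4 there as well. In the macrophages it stood at 69.5 and 73.7 CPM, with intervals that overlapped. Because the suffixes carry no sample name, none of these differences is tied to an infarct time.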

How the data were processed

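The authors deposited 1 matrix of UMI counts, whole numbers per gene and nucleus, for 32623 genes and 48637 barcodes. Per the file headers it was written by cellranger 5.0.1, while the submitters' processing notes name Cell Ranger 6.1.1, Seurat and rn7, so the version and the build are not settled. Counts of the members of a class were summed per library and divided by their total to give CPM. Intervals are exact 95% Poisson intervals for levels, Clopper-Pearson for shares and conditional binomial for ratios, and with 1 library per suffix no p-value was computed. The members and gene lists were chosen with earlier results of these data known. Of 553 symbols on 28 lists, 534 were found in the matrix, 5 of them by another name, and 6776 of the matrix's genes carry only contig names. Ttn was not analysed here.

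Genes named in the text are, by rule, the 15 highest and 10 lowest against macrophages, the 8 highest against all other nuclei, the 8 highest and 5 lowest of members with Clec9a or Xcr1, the 8 that differed most between library 3 and library 4, 2 from each end of each list, and 15 lineage and class II genes that are always named. Other genes named were chosen after their values were seen, as were the groups of members with Zbtb46 alone and high in the pDC core. Doublet scores came from scanpy 1.11.5 (Scrublet) per library at an expected rate of 0.8% per 1000 barcodes, and the 8 members with the highest scores were left in. Tables were made with Python 3.11.15, numpy 2.4.6, scipy 1.17.1 and pandas 2.3.3, and the comparison was tested on simulated data with known folds. Alternatives left out each library in turn and changed the marker, depth, Cd74, Mertk, doublet, scaling, pseudocount and low-level settings.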

Additional observations from a re-analysis of the deposited data

How the results depend on the processing

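Library 3 and library 4 decided how many genes were called, since a call needs both and leaving out either leaves it resting on 1 library. Over leaving out each library, genes higher than in macrophages numbered 232 to 1125 (1125 without library 3, 399 without library 4) and genes lower 164 to 1063 (340 without library 4). Against all other nuclei the ranges were 280 to 767 higher and 276 to 1049 lower (424 and 599 without library 4), and list members called ranged from 38 to 65 higher and from 20 to 57 lower. No demand on Cd74 in members moved the shares of kept nuclei to 2.03%, 0.418%, 1.08% and 1.49% in libraries 1 to 4 and the list members called higher to 19, and of the 261 genes then higher than in macrophages 113 were among the 228. A demand of 3 marker UMIs gave 0.0205%, 0.517% and 0.261% in libraries 2 to 4, a minimum of 1000 UMIs gave 0.147% in library 2, and leaving out members with Mertk or Mrc1 gave 0.322% in library 3 and 293 genes lower than in macrophages. Genes lower than in all other nuclei were 445 with a pseudocount of 1 CPM and 507 without the nuclei with Zbtb46 alone, an alternative chosen after seeing the data. With 2 UMIs of Clec9a and Xcr1 demanded, 1.16% of members carried the mark. List medians that changed sign were chemokines, from -0.39 to 0.0424 without library 3, and cytokines, from 0.50 to -0.0273 with no demand on Cd74 in members and to -0.21 with no filter on low genes, and the cause was not tested. Over the named genes, 1690 comparisons kept their call, 83 gained one and 24 lost one, 42 of the gains from leaving out library 3 or 4. Runx2 lost its call under median-of-ratios scaling at 1.41 on the log2 scale, as did Tcf4 at 1.01, and Tcf4 lost it with 3 marker UMIs at 1.09. Without the members with Mertk or Mrc1 the calls of Il18, Slco5a1, Tlr3, Trabd2b and Xaf1 were lost. Depth limits libraries 1 and 2, whose members hold 14372 and 12652 UMIs. No paired analysis was possible because the barcode suffixes carry no replicate number or group and no test was made.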

Other observations

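Genes called higher than in macrophages were also sorted by which members supplied their UMIs, a count made after the values were seen. Of the 228 genes, 216 had at least 15 UMIs in the members. The 21 nuclei high in the pDC core held 11.8% of the members' UMIs and supplied over 50% of the UMIs of 15 of these genes. Outside Runx2 and Bcl11a, which chose the group, these included Hs3st3a1 at 98.1%, Cyb561a3, a cytochrome of lysosomes, at 88%, Lrp8, a receptor of the lipoprotein receptor family, at 77.6%, Tmem163, a zinc transporter, at 75%, Padi2, an enzyme that turns arginine into citrulline, at 72.2% and Ighm at 72.1%. The nuclei with Zbtb46 alone held 15.3% of the UMIs and supplied over 50% of 10 genes, among them the synaptic scaffold gene Shank3 at 65.4%, the transcription factor Dach1 at 63.4% and Flt1 at 51.9%. The members with Clec9a or Xcr1 held 22.2% and supplied over 50% of 4 genes, led by Trabd2b at 67.9%, while the remaining Flt3 group held 50.7% and supplied over 50% of 139. The same count was not made over all genes tested, so these numbers have no background beside them. Since the remaining Flt3 group held 50.7% of all UMIs, its 139 genes are not read as a result about that group.

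Across all 173 members, 69 (39.9%) held at least 2 UMIs from 2 genes of the pDC core, against 153 of 860 macrophages (17.8%), so a low level of these genes was not confined to the 21 nuclei. In all, 8 members were among the barcodes with the highest doublet scores of their library, 1, 0, 6 and 1 in libraries 1 to 4.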
